A study of Rattus norvegicus with 28 samples.

Results

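Bdnf, Hbegf and Inhba are 3 secreted growth factor genes whose RNA was followed in C6 cells, an established line from a rat glial tumour that stands in for astrocytes here, after short exposure to psychiatric drugs. They were chosen by gene symbol, and they make up 3 of the 13337 genes named on the Illumina rat bead array used. Each gene had 1 probe (Bdnf ILMN_1360447, Hbegf ILMN_1357783, Inhba ILMN_1370619), so 3 of 22523 probes were followed, and all 3 were among the 11364 that passed the detection filter. Each was detected above the negative controls on 28 of 28 arrays, with a highest detection p of 0.002 for Bdnf, 0.001 for Hbegf and 0.004 for Inhba.

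Cells received desipramine, a noradrenaline reuptake inhibitor (6 arrays), or fluoxetine, a selective serotonin reuptake inhibitor (6 arrays). Others received haloperidol, an antipsychotic (6 arrays), or diazepam, a benzodiazepine (4 arrays, numbered 1, 4, 5 and 6). The dose was 25 µM for 2 h in each case, and 6 arrays of untreated cells served as the comparison. All groups had been without serum for 24 h, and no vehicle is named for the untreated cells. The replicates are called biological in the labels, but all come from 1 tumour line. The design sets the 2 antidepressants against 2 drugs without that use and against no drug.

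Bdnf encodes brain-derived neurotrophic factor, which acts through the receptor TrkB (Ntrk2) and the low-affinity receptor p75 (Ngfr), and its transcription from several alternative promoters responds to cAMP, calcium and MAP kinase signals. Hbegf encodes heparin-binding EGF-like growth factor, made as a membrane-bound precursor that metalloproteases release to activate the EGF receptor, and it is itself an early target of the MAP kinase pathway. Inhba encodes the beta A subunit shared by activin A and inhibin A, members of the TGF-beta superfamily that signal through activin receptors and Smad2 and Smad3, and follistatin (Fst) binds and neutralises activin.

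The sequences before the transcription starts are shown because such growth factor genes are switched on through short promoter motifs. RefSeq (build GRCr8) annotates 6 starts for Bdnf, 1 for Hbegf and 1 for Inhba. The array has 1 Bdnf probe, whose sequence was not used here, so its signal was not assigned to a start. Of the Bdnf starts, numbers 3 and 4 in genome order are printed because they alone held a searched motif. Each run gives the 250 bases before the start, 5′ to 3′ on the gene's strand, with matched motifs in capitals.
Bdnf, start 3, chr3:116621721-116621970, plus strand: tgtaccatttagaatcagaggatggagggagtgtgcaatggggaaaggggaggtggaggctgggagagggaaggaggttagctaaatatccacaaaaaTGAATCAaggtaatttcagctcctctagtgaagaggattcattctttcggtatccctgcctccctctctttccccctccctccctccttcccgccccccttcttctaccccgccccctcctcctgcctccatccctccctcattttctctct
Bdnf, start 4, chr3:116637608-116637857, plus strand: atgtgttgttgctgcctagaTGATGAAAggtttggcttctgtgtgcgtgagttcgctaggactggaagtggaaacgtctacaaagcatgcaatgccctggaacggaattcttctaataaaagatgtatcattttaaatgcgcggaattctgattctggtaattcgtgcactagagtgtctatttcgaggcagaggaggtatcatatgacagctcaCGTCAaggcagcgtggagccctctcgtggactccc
Hbegf, chr18:28390221-28390470, minus strand: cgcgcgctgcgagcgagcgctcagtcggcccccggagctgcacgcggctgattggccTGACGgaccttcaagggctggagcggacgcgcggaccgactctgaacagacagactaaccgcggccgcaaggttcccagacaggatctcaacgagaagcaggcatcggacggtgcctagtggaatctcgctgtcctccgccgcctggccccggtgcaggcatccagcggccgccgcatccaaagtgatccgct
Inhba, chr17:53804509-53804758, minus strand: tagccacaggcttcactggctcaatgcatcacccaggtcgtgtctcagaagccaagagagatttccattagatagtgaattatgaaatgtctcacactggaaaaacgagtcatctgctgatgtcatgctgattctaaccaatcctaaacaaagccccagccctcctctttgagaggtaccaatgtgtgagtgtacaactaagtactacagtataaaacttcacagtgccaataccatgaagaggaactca

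Both strands were searched for 6 motifs. The letters TGANTCA (AP-1 site) stood at -152 to -146 from Bdnf start 3, and 6.34% of 33469 windows of the same length in the rat annotation held them. The letters TGACG (the core of a cAMP response element) stood on the minus strand at -35 to -31 from Bdnf start 4, where the printed strand reads CGTCA, and at -193 to -189 from the Hbegf start. They were present in 18.2% of windows. The letters TGATGNAA (a composite CCAAT/enhancer and ATF element) lay at -230 to -223 from Bdnf start 4 and were present in 3.40% of windows. No printed window held the full cAMP response element TGACGTCA (1.59% of windows, each of which also holds the core), the E-box CACGTG (5.59%) or the CArG box (1.50%), and the Inhba window held none of the 6. These matches describe letters in these windows and say nothing of binding.

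Across the series, 9839 to 10537 probes were detected per array, no array duplicated another, and the leading principal component (18.7% of the variance) set arrays numbered 5 and 6 (5.12 to 15.3) apart from those numbered 1 to 4 (-15.8 to 2.20) in every group. Of the astrocyte markers, 6 of the 8 on the array were detected on all 28 arrays and Aqp4 on none, and of the oligodendrocyte markers 5 of 9 were detected on all arrays and Mog and Mag on none. Microglial and endothelial markers were detected on all 28 arrays for 0 of 6 and 0 of 5 genes, and 4 and 3 of them on none. Of 10 neuronal markers, 5 were detected on all arrays and Snap25 and Slc17a7 on none. Of the 8 that passed the detection filter, 0, 1, 3 and 1 were called lower with desipramine, fluoxetine, haloperidol and diazepam, and 0 higher. The shares of all probes called lower were 2.22%, 1.54%, 1.45% and 0.414% in that order, and those called higher 3.37%, 2.21%, 2.28% and 0.378%. Of 7 astrocyte markers past the filter 1 was called lower with fluoxetine. With the array number as a block 1, 2 and 1 were called lower with fluoxetine, haloperidol and diazepam. Haloperidol and diazepam arrays were not paired with untreated ones by the rule given below. Of 7 oligodendrocyte markers 1 was called lower with desipramine (2 with the block), and no microglial or endothelial marker was called against untreated cells. The summed linear intensity of the neuronal markers was 1657 to 1942 in desipramine cells, 1358 to 1572 in fluoxetine cells, 1458 to 1574 in haloperidol cells and 1273 to 1666 in diazepam cells, against 1801 to 2053 in untreated cells. The part of these marker differences, which ran with the drug groups, in the results below was not tested.

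Values below are log2 intensities after background correction and quantile normalization, and a change is the drug mean minus the untreated mean on that scale, with its standard error (SE). Adjusted p is from 1 limma fit over all 28 arrays, with Benjamini-Hochberg adjustment over 11364 probes and a threshold of 0.05. Array intensity can reflect fewer transcripts per cell or fewer cells that express the gene, which cannot be told apart in bulk RNA.

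Bdnf rose with fluoxetine, by 1.56-fold, and its level stood above every untreated array on each fluoxetine array. Its lowest, median and highest levels were 7.48, 7.53 and 7.75 in fluoxetine cells, against 6.67, 6.95 and 7.20 in untreated cells. The groups did not overlap, which was so, in the higher direction, for 2% of probes. The change was 0.64 ± 0.09 (SE; adjusted p = 9.21e-06, limma, n = 6 each) and ranked 77 of 11364 from the top, where 2.21% of probes were called higher, 1.54% lower and 3.75% in either direction. It was called under each left-out array (0.58 to 0.69) and under median scaling (0.61, adjusted p = 0.00908). It was 0.67 on arrays 1 to 4 and 0.57 on arrays 5 and 6 (adjusted p = 0.276 with 2 arrays a group). An exact permutation test of the 12 arrays gave p = 0.00216, the smallest that 924 splits can give, unadjusted as 1 of 12 such tests.

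With desipramine the Bdnf values lay between those of fluoxetine and untreated cells. They ran over 7.12, 7.22 and 7.34 (lowest, median and highest) in desipramine cells, against 6.67, 6.95 and 7.20 in untreated cells, and 3 of 6 desipramine arrays exceeded every untreated array. The change of 0.28 ± 0.09 (1.22-fold) did not pass (adjusted p = 0.0507, limma, n = 6 each; 3.37% of probes called higher, 2.22% lower and 5.59% in either direction), and the exact permutation p was 0.00866. With the array number as a block, which paired desipramine and untreated arrays, it passed at the same size (adjusted p = 0.0132). It also passed without untreated array 6 (0.33, adjusted p = 0.0205) and without desipramine array 2 (0.31, adjusted p = 0.0463), and median scaling gave 0.16 (adjusted p = 0.574).

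Bdnf under the other two drugs overlapped the untreated range. Its level was 7.12 ± 0.21 (SD, n = 6) in haloperidol cells, with haloperidol array 5 highest at 7.50, and the difference from untreated of 0.18 (95% interval 0.00 to 0.36) did not pass (adjusted p = 0.303, limma; 3.73% of probes called, 2.28% higher and 1.45% lower). In diazepam cells arrays 1, 4, 5 and 6 stood at 6.90, 7.14, 7.07 and 7.15, against a mean of 6.94 ± 0.17 (SD, n = 6) in untreated cells. That difference was 0.12 (95% interval -0.08 to 0.32; adjusted p = 0.785, limma; 0.792% of probes called, 0.378% higher and 0.414% lower). The exact permutation p was 0.128 for haloperidol and 0.2 for diazepam.

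Hbegf rose with desipramine, by 1.72-fold. Its lowest, median and highest levels were 8.15, 8.92 and 9.10 in desipramine cells, against 7.60, 7.90 and 8.96 in untreated cells. Desipramine array 6 at 8.15 and untreated array 1 at 8.96 made the groups overlap, while the other 5 desipramine arrays (8.77 and above) all exceeded the other 5 untreated arrays (8.05 and below). The change was 0.79 ± 0.16 (SE; adjusted p = 0.00294, limma, n = 6 each), with an exact permutation p of 0.0152. It was called under each left-out array and was largest without untreated array 1 (0.97, adjusted p = 1.24e-05). Median scaling ended the call at 0.66 (adjusted p = 0.0957), and arrays 5 and 6 alone gave 0.55 (adjusted p = 0.594) against 0.90 on arrays 1 to 4 (adjusted p = 0.0160).

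With fluoxetine, Hbegf had lowest, median and highest levels of 8.28, 8.61 and 8.69, against 7.60, 7.90 and 8.96 in untreated cells. Every fluoxetine array lay above 5 of 6 untreated arrays and below untreated array 1. The change of 0.53 ± 0.16 (1.44-fold) did not pass (adjusted p = 0.0693, limma, n = 6 each), and the exact permutation p was 0.0346. Without untreated array 1 it was 0.72 and passed (adjusted p = 0.000719), and with the array number as a block it passed at 0.53 (adjusted p = 0.0468).

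In haloperidol cells Hbegf was 8.24 ± 0.18 and in diazepam cells 8.15 ± 0.22, against 8.01 ± 0.49 in untreated cells (SD, n = 6, 4 and 6). The diazepam arrays 1, 4, 5 and 6 had 7.91, 8.30, 8.37 and 8.02. The differences were 0.22 (95% interval -0.12 to 0.56; adjusted p = 0.571) and 0.14 (-0.24 to 0.51; adjusted p = 0.908) in limma, and neither passed. The exact permutation p was 0.335 and 0.629. Without untreated array 1 these differences also grew, to 0.41 and 0.32. Neither passed under any left-out array (lowest adjusted p 0.0897 and 0.455, limma).

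Inhba had the largest SD of the 3 genes in each of the 5 groups. Its lowest, median and highest levels were 7.88, 8.86 and 9.16 in desipramine cells, against 7.36, 7.76 and 8.47 in untreated cells. Of the 6 desipramine arrays, 4 exceeded every untreated array, and arrays 5 (8.45) and 6 (7.88) did not. The change of 0.87 ± 0.28 (1.83-fold) ranked 32 of 11364 from the top but did not pass (adjusted p = 0.0649, limma, n = 6 each), with an exact permutation p of 0.0195. It passed with the array number as a block (0.87, adjusted p = 0.00262), on arrays 1 to 4 alone (0.94, adjusted p = 0.00975), without desipramine array 6 (1.04, adjusted p = 0.0190) and without untreated array 2 (1.00, adjusted p = 0.0425).

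Fluoxetine cells had Inhba levels of 7.91, 8.38 and 8.90 (lowest, median and highest), against 7.36, 7.76 and 8.47 in untreated cells, with arrays 1, 2 and 3 of fluoxetine above all untreated arrays. The change of 0.57 ± 0.28 (1.49-fold) did not pass (adjusted p = 0.318, limma, n = 6 each; exact permutation p = 0.0606).

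With haloperidol and diazepam the Inhba means lay on the other side of the untreated mean. In haloperidol cells the levels were 6.01, 7.72 and 7.94 (lowest, median and highest), and in diazepam cells arrays 1, 4, 5 and 6 had 7.78, 7.22, 7.22 and 6.74, against 7.36, 7.76 and 8.47 in untreated cells. Haloperidol array 5 was the lowest of all 28 at 6.01. The difference for haloperidol was -0.45 (95% interval -1.03 to 0.12) and did not pass (adjusted p = 0.466, limma). For diazepam it was -0.60 (95% interval -1.24 to 0.04) and did not pass either (adjusted p = 0.581, limma). Exact permutation gave p = 0.268 and 0.105. Leaving out single arrays gave -0.56 to -0.18 for haloperidol, and -0.18 was the value without haloperidol array 5. With the array number as a block the diazepam difference was -0.38 (adjusted p = 0.446, limma). Diazepam and untreated arrays were not paired by the rule given below.

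**Figure D1:**
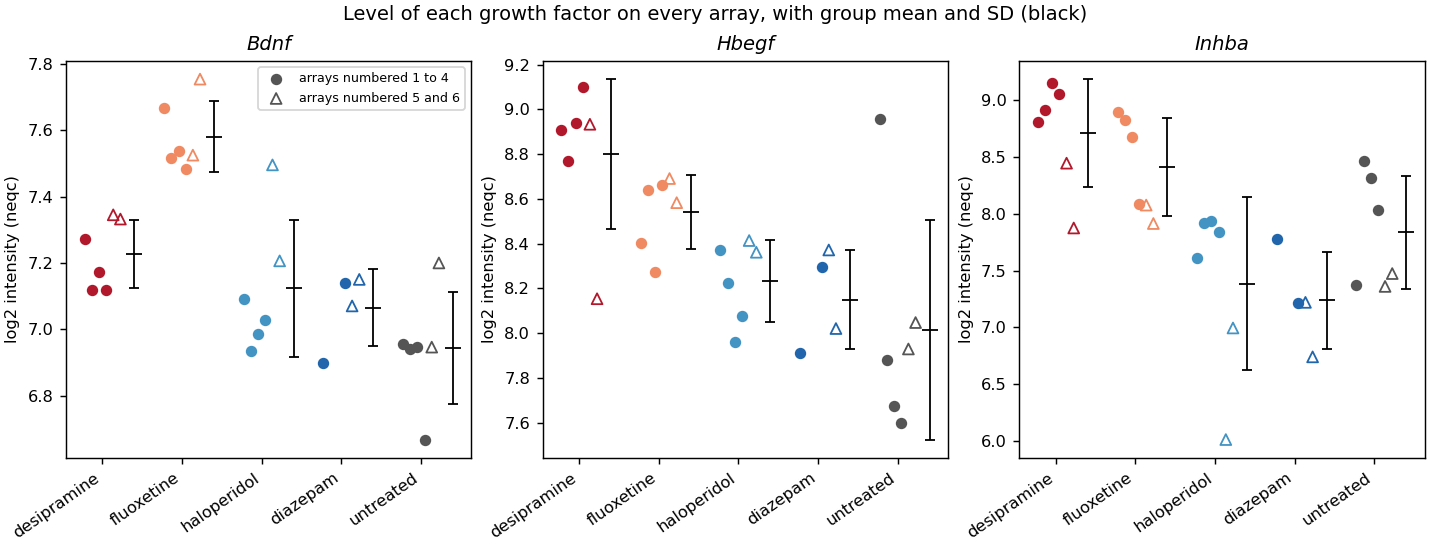
Log2 intensity of Bdnf, Hbegf and Inhba on each of the 28 arrays, by group, with filled circles for arrays numbered 1 to 4, open triangles for arrays 5 and 6, and the group mean and SD in black. All 6 fluoxetine arrays lie above the untreated ones for Bdnf, untreated array 1 stands alone at 8.96 for Hbegf, and the triangles sit low for Inhba.

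Setting the drugs against each other asks whether the antidepressants differ from one another and from the drugs without that use. Bdnf was lower with desipramine than with fluoxetine, by 0.35 ± 0.09 (1.28-fold lower; adjusted p = 0.00900, limma, n = 6 each). Desipramine levels ended at 7.34 and fluoxetine levels began at 7.48, a gap without overlap that was seen, in the lower direction, for 1.78% of probes, while 4.59% were called lower and 8.29% in either direction. For Hbegf the same contrast was 0.26 (95% interval -0.08 to 0.59; adjusted p = 0.410) and for Inhba 0.30 (-0.28 to 0.87; adjusted p = 0.626), so neither passed, and the intervals leave room for differences of up to 0.59 and 0.87.

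Fluoxetine exceeded haloperidol for Bdnf by 0.46 ± 0.09 (adjusted p = 0.00155, limma, n = 6 each; 2.14% of probes higher and 3.63% in either direction), with 5 of 6 fluoxetine arrays above every haloperidol array. Fluoxetine exceeded diazepam for Bdnf by 0.52 ± 0.10 (adjusted p = 0.000869, limma, n = 6 and 4; 2.9% of probes higher and 4.78% in either direction), and those groups did not overlap, as for 3.63% of probes in that direction. Desipramine Bdnf levels differed from haloperidol by 0.10 (95% interval -0.07 to 0.28; adjusted p = 0.557) and from diazepam by 0.16 (95% interval -0.04 to 0.36; adjusted p = 0.373), and neither passed in limma.

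Hbegf was higher with desipramine than with haloperidol, by 0.57 ± 0.16 (1.48-fold; adjusted p = 0.0276, limma, n = 6 each; 4.25% of probes higher and 8.26% in either direction), and than with diazepam, by 0.65 ± 0.18 (1.57-fold; adjusted p = 0.0230, limma, n = 6 and 4; 4.51% of probes higher and 8.09% in either direction). Both calls were lost on leaving out any 1 of several arrays. The haloperidol contrast was lost without desipramine array 1, 3, 4 or 5 or haloperidol array 3 or 4 (0.51 to 0.54, adjusted p 0.0551 to 0.0843), and the diazepam contrast without desipramine array 3 or 4 or diazepam array 1 or 6 (0.57 to 0.62, adjusted p 0.0519 to 0.0875). Fluoxetine Hbegf levels differed from haloperidol by 0.31 (95% interval -0.03 to 0.64; adjusted p = 0.440) and from diazepam by 0.39 (95% interval 0.02 to 0.77; adjusted p = 0.273) in limma.

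The Inhba differences that passed were those between drugs. Inhba was 2.51-fold higher with desipramine than with haloperidol (1.33 ± 0.28; adjusted p = 0.00231, limma, n = 6 each) and 2.77-fold higher than with diazepam (1.47 ± 0.31; adjusted p = 0.00244, n = 6 and 4). Desipramine levels began at 7.88 and diazepam levels ended at 7.78, a separation seen for 3.61% of probes in that direction. Both contrasts were called under each left-out array, at 1.05 to 1.49 and at 1.31 to 1.65. The diazepam group holds only arrays 1, 4, 5 and 6, and Inhba was lower on arrays 5 and 6 in every group. With the array number as a block the diazepam contrast was smaller, at 1.25 (adjusted p = 0.000196, limma). Desipramine and diazepam arrays were not paired by the rule given below.

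With fluoxetine, Inhba was 2.04-fold higher than with haloperidol (1.03 ± 0.28; adjusted p = 0.0339, limma, n = 6 each) and 2.26-fold higher than with diazepam (1.17 ± 0.31; adjusted p = 0.0247, n = 6 and 4), and the fluoxetine and diazepam groups did not overlap, as for 3.63% of probes in that direction. Over all probes 2.14% and 2.9% were called higher in these contrasts. The haloperidol contrast was lost without fluoxetine array 1, 2 or 3 or haloperidol array 5 or 6 (0.75 to 0.98, adjusted p 0.0777 to 0.110). The diazepam contrast was lost without fluoxetine array 1 or 2 or diazepam array 4, 5 or 6 (1.01 to 1.17, adjusted p 0.0542 to 0.116). With the array number as a block the diazepam contrast was smaller, at 0.95 (adjusted p = 0.00394, limma). Haloperidol and diazepam were not told apart for any of the 3 genes, with differences of 0.06 (Bdnf), 0.09 (Hbegf) and 0.15 (Inhba) and adjusted p of 0.846, 0.884 and 0.884 in limma (2.3% of probes called).

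As the mean of desipramine and fluoxetine minus the mean of haloperidol and diazepam, all 3 genes were called higher, where 4.06% of probes were called higher and 7.15% in either direction. Inhba was 2.38-fold higher in antidepressant cells, at 1.25 ± 0.21 (adjusted p = 0.000156, limma, 12 and 10 arrays), and ranked 3 of 11364 from the top. It was also called on arrays 1 to 4 alone (1.14, adjusted p = 0.000212) and on arrays 5 and 6 alone (1.34, adjusted p = 0.0203), and under each left-out array (1.11 to 1.34). The class difference was 0.48 ± 0.12 for Hbegf (1.39-fold; adjusted p = 0.0131) and 0.31 ± 0.07 for Bdnf (1.24-fold; adjusted p = 0.00207). Median scaling ended these last calls, at 0.48 (adjusted p = 0.115) and 0.31 (adjusted p = 0.111), and a contrast of 2 drugs with 2 others does not sample the drug classes.

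**Figure D2:**
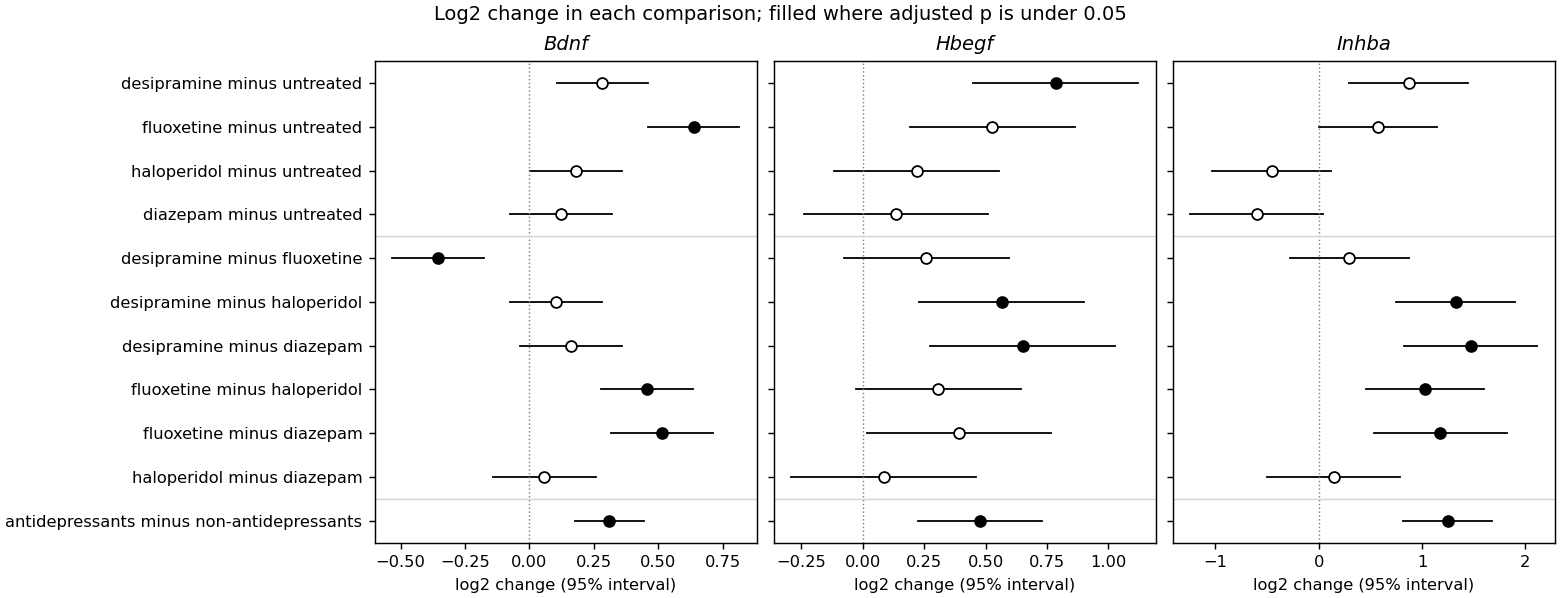
Log2 change of Bdnf, Hbegf and Inhba (x axis, with 95% intervals) in each of the 11 comparisons (rows), filled where the adjusted p is under 0.05. Bdnf is filled in 5 rows, led by fluoxetine minus untreated at 0.64, Hbegf in 4 and Inhba in 5, and Inhba reaches 1.47 in desipramine minus diazepam without being filled in any row against untreated cells.

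The order of the group means differed by gene. For Bdnf it was fluoxetine, desipramine, haloperidol, diazepam and untreated, and of these neighbours fluoxetine and desipramine alone differed past the threshold. For Hbegf it was desipramine, fluoxetine, haloperidol, diazepam and untreated, and for Inhba desipramine, fluoxetine, untreated, haloperidol and diazepam, with no neighbouring pair past the threshold for either gene. With the array number as a block haloperidol minus diazepam was -0.074 for Inhba, so the order of these drugs turned.

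The array number moved with the levels, and its part in them was described by setting each drug array against the untreated array of the same number. Inhba was lower on arrays 5 and 6 than on arrays 1 to 4 in all 5 groups, by means of -0.82 (desipramine), -0.63 (fluoxetine), -1.32 (haloperidol), -0.52 (diazepam) and -0.63 (untreated). Bdnf was higher on arrays 5 and 6 in all 5 groups, by 0.17, 0.09, 0.34, 0.09 and 0.19 in the same order. Hbegf showed no common direction, with differences from -0.39 in desipramine cells to 0.23 in haloperidol cells.

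Against the untreated array of the same number, Bdnf was higher on 6 of 6 desipramine arrays (0.13 to 0.45) and on 6 of 6 fluoxetine arrays (0.55 to 0.82), and on 5 of 6 haloperidol and 2 of 4 diazepam arrays. Hbegf was higher on 5 of 6 desipramine arrays (median 0.95), 5 of 6 fluoxetine arrays (median 0.68), 5 of 6 haloperidol arrays and 2 of 4 diazepam arrays. The exception for desipramine, fluoxetine and haloperidol was array 1, where the untreated value was 8.96. Inhba was higher on 6 of 6 desipramine arrays (0.40 to 1.43) and 6 of 6 fluoxetine arrays (0.05 to 1.52), but on 1 of 6 haloperidol arrays and 1 of 4 diazepam arrays, in both cases array 1.

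**Figure D3:**
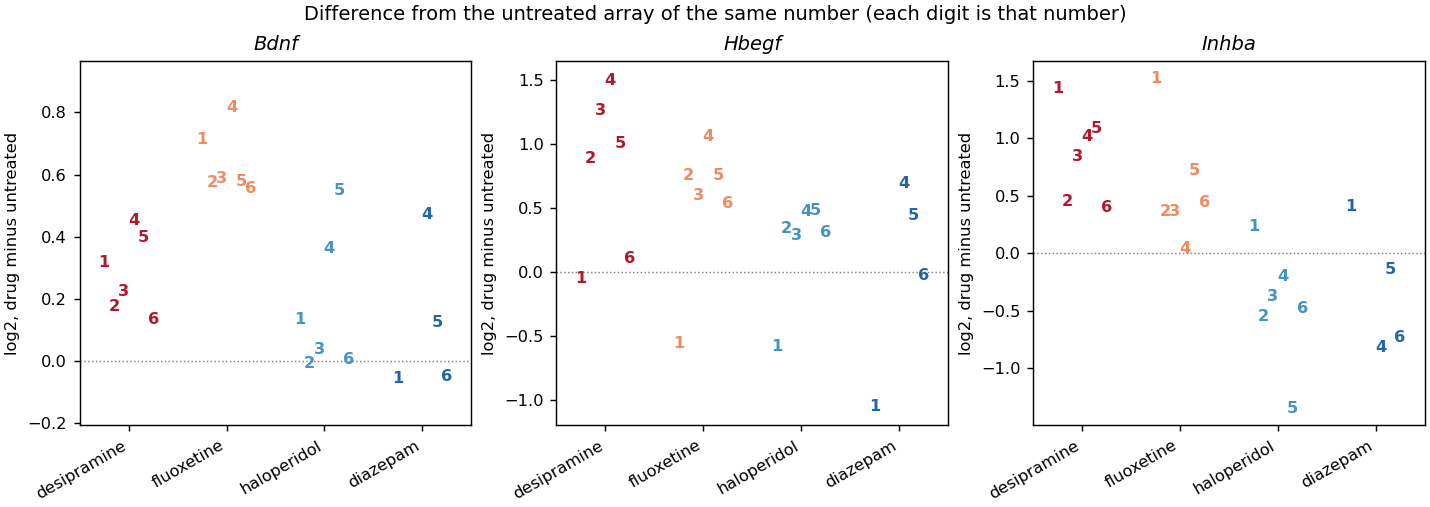
Difference in log2 intensity between each drug array and the untreated array of the same number (y axis; each digit is that array number) for the 4 drugs. For Inhba the antidepressant arrays lie at 0.05 and above and most haloperidol and diazepam arrays below 0, and for Hbegf array 1 falls below 0 in all 4 drugs.

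The 3 genes followed different patterns over the arrays. Pearson's r over the 28 arrays, which share the drug groups and array numbers, was 0.47 between Bdnf and Hbegf, 0.35 between Hbegf and Inhba and 0.13 between Bdnf and Inhba. The named genes most like Bdnf were Rapgef2 (r = 0.856), Gem (0.851), Rnd3 (0.813), Ppp1r15a (0.807) and Ccn2 (0.790). Those most like Hbegf were Ier2 (r = 0.874), Klf10 (0.873), Tnfrsf12a (0.854), Ppp1r18 (0.854) and Hspa4l (0.838). Those most like Inhba were Zfp36l2 (r = 0.873), Zfp24 (0.873), Zc3h11a (0.846), Sh3bp4 (0.841) and Gpatch4 (0.834).

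Around Bdnf, the list of neurotrophin ligands, receptors and processing enzymes had 16 of 22 genes on the array and 8 past the detection filter, with 1 higher and 0 lower both with desipramine and with fluoxetine, and none called with haloperidol or diazepam (2, 1, 1 and 0 at an unadjusted p under 0.05). Over all probes 5.59%, 3.75%, 3.73% and 0.792% were called in either direction with desipramine, fluoxetine, haloperidol and diazepam, and nothing is read from 1 call in 8. Its median changes were 0.13 (desipramine), 0.01 (fluoxetine), -0.04 (haloperidol) and 0.06 (diazepam), where the medians of all probes were -0.01, -0.00, -0.00 and 0.00. The call with fluoxetine was Bdnf itself. The call with desipramine was Ngfr, the p75 receptor, which had lowest, median and highest levels of 9.49, 9.82 and 10.26 in desipramine cells, against 9.01, 9.30 and 9.47 in untreated cells, without overlap. Its change was 0.55 ± 0.12 (adjusted p = 0.00294, limma, n = 6 each), and 1.46% of probes separated in that way. Median scaling ended that call, at 0.44 (adjusted p = 0.140). With the array number as a block the list had 2 calls with desipramine, Bdnf being the addition. Ntrk2, the TrkB receptor gene, was detected on 20 of 28 arrays, with changes of -0.18, -0.08, -0.07 and -0.08 in the 4 drugs, none past the threshold. A list of transcription factors, co-factors and kinases known to act on Bdnf had 11 genes past the detection filter, the kinase genes Camk2a and Camk4 on 6 and 8 of 28 arrays. Of the 11, 0 were called by limma with any drug against untreated cells (1, 2, 2 and 2 at an unadjusted p under 0.05). With the block in limma 1 was called with fluoxetine, Creb1 (0.36, adjusted p = 0.0186), and 1 with haloperidol, Crtc2 (0.35, adjusted p = 0.00202). Both were named after their values were seen, and haloperidol arrays were not paired with untreated ones by the rule given below.

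Around Hbegf, 4 of the 9 EGF family ligands on the array (11 in the list) passed the detection filter. With desipramine Hbegf and Areg were called higher and 0 lower, and with the other drugs none was called (1, 1 and 2 at an unadjusted p under 0.05 with fluoxetine, haloperidol and diazepam). The shares of all probes called in either direction were 5.59%, 3.75%, 3.73% and 0.792% with desipramine, fluoxetine, haloperidol and diazepam. With desipramine 3.37% were called higher. Nothing is read from 2 calls in 4, of which 1 is Hbegf itself. Areg, which encodes amphiregulin, was detected on 4 of 6 desipramine arrays, against 0 of 6 without drug, and on 4 of 28 in all. It passed the detection filter through the desipramine arrays alone, so its call is not independent of the filter and does not support the count. As a description, its desipramine mean was 1.31-fold above the lowest signal called detected on the untreated arrays. That mean takes in desipramine arrays that did not detect Areg, so the ratio is not a lower bound. Egf, the gene for epidermal growth factor, was the fourth ligand and is named after its values were seen; it lay the other way, with changes of -0.38 (desipramine), -0.22 (fluoxetine), -0.29 (haloperidol) and -0.49 (diazepam) and adjusted p of 0.0744, 0.424, 0.222 and 0.122 in limma. With the array number as a block in limma Egf passed with desipramine (adjusted p = 0.0244) and diazepam (adjusted p = 0.0219), though diazepam arrays were not paired with untreated ones by the rule given below. With desipramine 1 ligand was also called lower under median scaling and on arrays 1 to 4 alone. Tgfa, the gene for transforming growth factor alpha, differed by 0.06 and 0.12 with desipramine and fluoxetine and passed with neither. Among 10 detected EGF receptors and sheddases, 0 were called with any drug by limma (1, 0, 1 and 0 at an unadjusted p under 0.05), including the shedding protease gene Adam17 (0.11 with desipramine, adjusted p = 0.536). Egfr itself was detected on 3 of 28 arrays and on 0 of 6 untreated ones and was not tested, while Erbb3 was detected on all 28.

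Of 18 detected genes that receptor kinases induce through the MAP kinase pathway, 12 rose and 0 fell with desipramine, 7 rose and 0 fell with fluoxetine, 2 rose and 0 fell with haloperidol, and 1 rose and 1 fell with diazepam. Over all probes 3.37%, 2.21%, 2.28% and 0.378% were called higher, and the difference between the list and the rest was not tested. The median changes were 0.73, 0.35, -0.00 and 0.01. Under median scaling 8, 4, 0 and 0 members were called, and on arrays 1 to 4 alone 11, 5, 0 and 0, all of them rises. With desipramine the largest rises were those of Spry4 (1.41 ± 0.16) and Dusp6 (0.87 ± 0.14), feedback inhibitors of the pathway, and of Phlda1 (1.08 ± 0.24), Ier3 (1.07 ± 0.20) and Ier2 (1.02 ± 0.17). With fluoxetine they were those of the transcription factor genes Egr1 (0.86 ± 0.15), Egr2 (0.80 ± 0.11) and Myc (0.74 ± 0.08), then Spry4 (0.69 ± 0.16) and Ier2 (0.65 ± 0.17). Haloperidol raised Errfi1, an inhibitor of EGF receptor kinases (0.51 ± 0.11), and Fos (0.48 ± 0.11), and with diazepam Errfi1 rose (0.65 ± 0.12) and Myc fell by 0.47. Ier2 is also among the genes most like Hbegf.

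Around Inhba, 13 of the 20 activin and inhibin genes on the array (22 in the list) passed the detection filter. With desipramine 1 rose and 1 fell, with fluoxetine 0 rose and 1 fell, and with haloperidol and diazepam none was called (3, 4, 3 and 4 at an unadjusted p under 0.05). Over all probes 5.59%, 3.75%, 3.73% and 0.792% were called, and nothing is read from so few calls. The rise was that of Fst, the activin antagonist follistatin (0.86 ± 0.14; adjusted p = 0.000248, limma, n = 6 each). All haloperidol and all diazepam arrays lay below every untreated array for Fst, as for 1.24% and 1.12% of probes. The differences were -0.43 ± 0.14 and -0.43 ± 0.16, and neither passed (adjusted p = 0.0934 and 0.305, limma). The SD of Fst was 0.08, 0.08 and 0.09 in haloperidol, diazepam and untreated cells but 0.53 in desipramine cells. These SE come from the spread of all groups pooled, and a fit of these groups alone was not examined for Fst. The fall was that of Bambi, a pseudoreceptor that blocks TGF-beta family signals (-0.45 ± 0.10 with desipramine, adjusted p = 0.00475, and -0.34 ± 0.10 with fluoxetine, adjusted p = 0.0481). The fluoxetine call was lost under median scaling (adjusted p = 0.284) and on arrays 1 to 4 alone (adjusted p = 0.113). The other activin and inhibin subunits on the array (Inhbb with 2 probes, Inhbc and Inha), the receptors Acvr1b and Acvr1c, and Smad3 were detected on 0 of 28 arrays, while Acvr2b, Smad2 and Smad4 were detected on all 28.

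Of 11 detected activin and TGF-beta response genes, 4 rose and 1 fell with desipramine, 2 rose and 1 fell with fluoxetine, and 1 fell with haloperidol and with diazepam, with median changes of 0.36, -0.03, -0.17 and -0.02, where 5.59%, 3.75%, 3.73% and 0.792% of all probes were called. The members moved both ways. Bhlhe40 (1.50 ± 0.12) and Klf10 (1.42 ± 0.17), transcription factor genes, rose with desipramine, as did Tgif1 (0.63 ± 0.16) and Ccn2 (0.62 ± 0.09), and Id1, a target of BMP signals, fell (-0.67 ± 0.12). Fluoxetine raised Ccn2, the connective tissue growth factor gene (1.33 ± 0.09), and Bhlhe40 (0.75 ± 0.12), and lowered Id1 (-0.93 ± 0.12). Tgfbi fell with haloperidol (-0.37 ± 0.09) and Ccn2 with diazepam (-0.59 ± 0.10). With the array number as a block, 6 rose and 2 fell with desipramine, 2 rose and 3 fell with fluoxetine, and 0 rose and 3 fell with haloperidol, whose arrays were not paired with untreated ones by the rule given below.

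Of 27 other secreted growth factor genes detected, 4 rose and 1 fell with desipramine, 6 rose and 0 fell with fluoxetine, 1 rose and 4 fell with haloperidol, and 0 rose and 1 fell with diazepam. Over all probes 3.37% and 2.22% were called higher and lower with desipramine, 2.21% and 1.54% with fluoxetine, 2.28% and 1.45% with haloperidol, and 0.378% and 0.414% with diazepam. Gdf15, a stress-induced member of the TGF-beta superfamily, was detected on 6 of 6 desipramine, 6 of 6 fluoxetine and 5 of 6 haloperidol arrays, against 0 of 6 without drug. Set against the lowest signal called detected on the untreated arrays, its level was higher by at least 1.86-fold with desipramine and 2.58-fold with fluoxetine. The same ratio was 1.23-fold with haloperidol, which is not a lower bound because not every haloperidol array detected it. Gdf15 passed the detection filter through these drug arrays alone, so its calls do not support the counts. Clcf1, a cytokine of the CNTF family, and Pdgfa rose with desipramine (1.20 ± 0.17 and 0.49 ± 0.09), and Tgfb3 fell (-0.42 ± 0.11). Ccn1 (1.35 ± 0.18), Vegfc (0.56 ± 0.10) and Tgfb2 (0.54 ± 0.13) rose with fluoxetine. With haloperidol Bmp2 (-0.63 ± 0.14), Fgf7 (-0.56 ± 0.12), Pgf (-0.56 ± 0.16) and Fgf2 (-0.45 ± 0.12) fell, and none of these 4 passed under median scaling. Under that scaling 3 rose and 0 fell with desipramine, so the fall of Tgfb3 was lost, and 3 rose and 0 fell with fluoxetine.

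**Figure D4:**
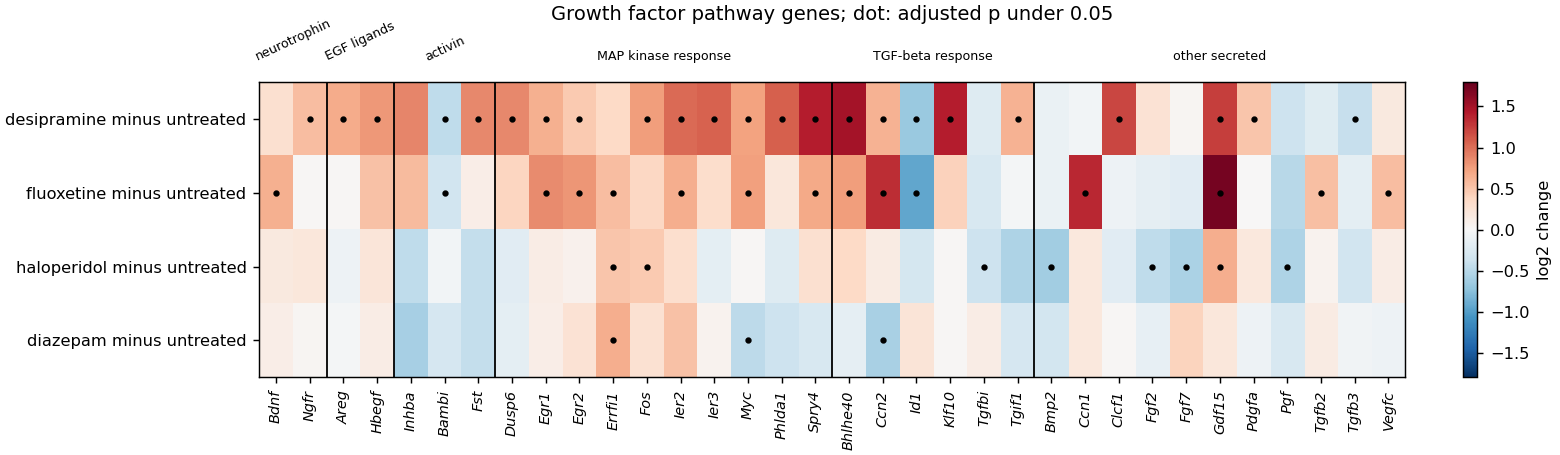
Heat map of the log2 change against untreated cells (colour scale) for Bdnf, Hbegf, Inhba and the called genes of their pathway lists, up to 5 per list and drug (columns, grouped by list), in each of the 4 drugs (rows), with a dot where the adjusted p is under 0.05. Of the 18 detected MAP kinase response genes 12 rose with desipramine, 7 with fluoxetine, 2 with haloperidol and 1 with diazepam; the drawn changes of Areg and Gdf15, not detected in untreated cells, are fitted values of genes that passed the filter through drug arrays alone.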

How the data were processed

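RNA of 28 samples was measured on Illumina rat bead arrays. Per the submitters' processing notes the arrays were read with GenomeStudio 1.9.0. The authors deposited a non-normalized table with a linear intensity per probe and array and a detection p-value in steps of 1 in 825, and a second table of normalized linear intensity whose method is not given in the sources used here and which served only as an alternative. Whether background had been subtracted is likewise not given. Columns of 2 arrays that match no sample (4 in all) were not used.

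Background correction and quantile normalization were done here by neqc (R 4.3.3, limma 3.58.1), which infers the negative controls' mean and spread from detection p-values, with an offset of 16, which pulls changes of dim probes toward 0. A probe was kept where 4 or more arrays had a detection p under 0.05, which left 11364 of 22523. Symbols came from the platform annotation (13793 probes with 1 symbol, 8730 unnamed) and were checked through Entrez identifiers, of which 13752 matched and 0 changed. A gene with several probes was represented by its brightest.

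One limma fit with a mean per group gave 11 contrasts, two-sided, with Benjamini-Hochberg adjustment over the kept probes. The fit was tested on simulated data with independent noise on each array. Those data held no array-number effect, so the test does not cover that feature of these arrays. Exact permutation tests used Python 3.11.15 and scipy 1.17.1. Same-numbered arrays of different groups were paired where every correlation of their deviations from the group means was over 0.1, which held for 5 of 10 group pairs, both antidepressants against untreated cells among them (all 52 correlations ran from -0.00498 to 0.510). Haloperidol and diazepam against untreated cells did not meet the rule (lowest correlations -0.00498 and 0.0358), and block results for these drugs carry that limit. The pairing is a hint from the data, since the labels name no shared day or culture. Precision is limited by the number of arrays. The text names the 3 genes, up to 5 called members per pathway list and drug, and the 5 genes most correlated with each. The genes, lists and tests were chosen with earlier results of these data known.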

Additional observations from a re-analysis of the deposited data

Results flagged for a closer look

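Of 15 combinations of gene and group, 2 held an array far from the rest by Dixon's criterion, which chance alone meets in about 1 in 20. Hbegf in desipramine array 6 was 8.15, with the nearest other array of that group at 8.77, a gap of 0.651 of the group's range, above the critical value for 6 arrays. Hbegf in untreated array 1 was 8.96, with the nearest other at 8.05, a gap of 0.669 of the range. Without desipramine array 6 the Hbegf change with desipramine was 0.92 (adjusted p = 0.000216, limma), and without untreated array 1 it was 0.97 (adjusted p = 1.24e-05, limma).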

How the results depend on the processing

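Of the repeats of the 33 gene changes (3 genes in 11 comparisons) under other settings, 247 kept direction and side of the threshold, 28 lost a call, 11 gained one and 8 changed sign, and with 1 array left out the numbers were 375, 20, 5 and 2. Causes were not tested, beyond the fewer arrays or larger number of probes that a setting holds. With the replicate number as a block, Bdnf (0.28) and Inhba (0.87) with desipramine and Hbegf with fluoxetine (0.53) gained calls against untreated cells, Inhba for haloperidol minus diazepam turned to -0.074, and no other call of the 3 genes changed. Under median scaling, calls were lost for Hbegf with desipramine against untreated (0.66), haloperidol (0.44) and diazepam (0.69), for Bdnf in desipramine minus fluoxetine (-0.45) and fluoxetine minus haloperidol (0.44), for Inhba in fluoxetine minus haloperidol (1.01), and for Bdnf (0.31) and Hbegf (0.48) in the class contrast. That scaling turned Bdnf (-0.018) and Hbegf (-0.030) with diazepam, where it moved the median of all probes to -0.12, and Bdnf in desipramine minus haloperidol (-0.014). The authors' normalized values gained the call of Inhba with desipramine (0.86), as did an offset of 50 (Bdnf 0.23, Inhba 0.78), array weights (Bdnf 0.28, Inhba 0.87, and Hbegf with fluoxetine 0.65) and the 2-group fit (Inhba 0.87), which lost Inhba in fluoxetine minus haloperidol (1.03). Without the detection filter, Hbegf lost its calls for desipramine against haloperidol (0.57) and diazepam (0.65), and Inhba for fluoxetine against haloperidol (1.03) and diazepam (1.17). Arrays 1 to 4 alone gained Inhba with desipramine (0.94), lost Hbegf in desipramine minus diazepam (0.83) and in the class contrast (0.58), and turned Bdnf in haloperidol minus diazepam (-0.010). Arrays 5 and 6 alone lost Hbegf with desipramine (0.55) and Bdnf with fluoxetine (0.57) against untreated; Bdnf (-0.30) in desipramine minus fluoxetine; Hbegf (0.16) and Inhba (1.66) in desipramine minus haloperidol; Hbegf (0.35) and Inhba (1.18) in desipramine minus diazepam; Bdnf (0.29) and Inhba (1.49) in fluoxetine minus haloperidol; Bdnf (0.53) and Inhba (1.02) in fluoxetine minus diazepam; and Bdnf (0.26) and Hbegf (0.30) in the class contrast. They turned Hbegf in desipramine minus fluoxetine (-0.093), Bdnf in desipramine minus haloperidol (-0.012) and Inhba in haloperidol minus diazepam (-0.48). Leaving out single arrays gave 0.23 to 0.33 for Bdnf and 0.78 to 1.04 for Inhba with desipramine, 0.44 to 0.72 for Hbegf with fluoxetine, 0.51 to 0.70 and 0.57 to 0.78 for Hbegf in desipramine minus haloperidol and minus diazepam, 0.75 to 1.14 and 1.01 to 1.36 for Inhba in fluoxetine minus haloperidol and minus diazepam, and -0.016 to 0.096 for Bdnf and -0.020 to 0.42 for Inhba in haloperidol minus diazepam. Counts of called probes moved more than the gene changes: 1105 against 635 for desipramine and 861 against 426 for fluoxetine with the block, and 245 and 158 under median scaling. For desipramine 33.1% of the calls under median scaling were rises, against 60.3% under quantile normalization, and for diazepam 9.52% against 47.8%. For the pathway lists, alternatives chosen after seeing the data were run. Each of the 44 named changes kept its sign, and 25 were called under median scaling, 34 on arrays 1 to 4 alone, 44 with the authors' normalized values and 44 with the block.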

Other observations

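Fst, the gene for the activin antagonist follistatin, moved with Inhba across the groups. It was singled out here after its values were seen. Its lowest, median and highest levels were 8.90, 9.98 and 10.38 in desipramine cells, against 8.93, 8.98 and 9.17 in untreated cells, with desipramine array 6 the low one. Fluoxetine cells averaged 9.13 ± 0.14, haloperidol cells 8.58 ± 0.08 and diazepam cells 8.58 ± 0.08, against 9.01 ± 0.09 in untreated cells (SD, n = 6, 6, 4 and 6). It was 0.74 ± 0.14 higher with desipramine than with fluoxetine (adjusted p = 0.00111, limma, n = 6 each) and did not differ past the threshold between fluoxetine and untreated cells (adjusted p = 0.769). In the class contrast Fst was higher in antidepressant cells by 0.92 ± 0.11 (adjusted p = 6.69e-07, limma). Over the 28 arrays, which share groups and array numbers, Pearson's r between Fst and Inhba was 0.745.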
